A study of Mus musculus with 18 samples.

Results

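Of the 179626 intervals made by merging the H3K36me2 peaks of 6 libraries, 2773 held a peak in all 3 WT lists and in none of the 3 KO lists. These lost intervals were chosen by the presence and absence of H3K36me2 peaks. Their H3K36me2 values are therefore a description of the choice, and no test was made on them. The word lost stands here for peaks not called in KO, not for a measured absence of the mark. Intervals with a peak in all 6 lists, 8518 in number, are called retained. Intervals with a peak in all 3 WT lists numbered 25488, and 10.9% of them were lost. This share ran from 7.95% to 33.4% under other choices of lists and peaks, given at the end.

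The study compared splenic B cells of Mir155-sufficient (WT) and Mir155-deficient (KO) mice on a C57BL/6 background. In both genotypes the cells were enriched by negative selection and stimulated for 2 days. The stimuli were IL-4 at 4 ng/ml, F(ab')2 anti-IgM at 5 µg/ml and anti-CD40 at 1 µg/ml. All cultures were kept at 1% O2 and 5% CO2. Each genotype had 3 ChIP-seq libraries for H3K36me2 and 3 for KDM2A, with replicate 1 labelled male and the other replicates female. The deficiency was present in the whole animal, and the labels did not give the age of the mice or say whether animals were pooled. P-values therefore measure the spread between these libraries.

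Dimethylation of lysine 36 of histone H3 is laid down mainly by the NSD methyltransferases and forms broad domains over gene bodies and between genes. KDM2A is a JmjC demethylase that removes this mark and binds unmethylated CpG dinucleotides through a CXXC zinc finger, which brings it to CpG-rich promoters. MiR-155 is a microRNA induced in activated B cells, and the study asked how its absence changes KDM2A binding and H3K36me2 under low oxygen.

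The sequences of 8 lost intervals are shown first, because KDM2A reads CpG. Each line is 200 bases of the plus strand of GRCm38, written 5′ to 3′, with CpG dinucleotides in capitals. The first pair lay under KDM2A peaks of all 6 KDM2A lists, at chr15:82215926-82216125 upstream of Shisa8 and chr19:6242613-6242812 in intron 1 of Atg2a. The next pair lay under KDM2A peaks of the 3 WT lists only, at chr8:70866084-70866283 near Kcnn1, which crosses the edge of the lost interval, and chr5:31082982-31083181 near Slc30a3. Then follow the centres of 3 lost intervals of high WT fold with no KDM2A peak in any list, at chr6:47738059-47738258 between genes, chr16:24928306-24928505 in intron 10 of Lpp and chr10:4636972-4637171 in intron 1 of Esr1. The last, at chr8:105613962-105614161 where Agrp and Ripor1 overlap, came from the lost interval with the most CpG per base.
Shisa8 upstream: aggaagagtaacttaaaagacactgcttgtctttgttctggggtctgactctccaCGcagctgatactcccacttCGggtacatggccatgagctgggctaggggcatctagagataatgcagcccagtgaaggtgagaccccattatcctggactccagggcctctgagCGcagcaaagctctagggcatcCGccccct
Atg2a intron: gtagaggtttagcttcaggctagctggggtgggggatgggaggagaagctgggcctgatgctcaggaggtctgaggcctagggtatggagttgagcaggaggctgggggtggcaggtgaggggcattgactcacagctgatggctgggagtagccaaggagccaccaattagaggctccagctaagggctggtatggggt
Kcnn1 upstream: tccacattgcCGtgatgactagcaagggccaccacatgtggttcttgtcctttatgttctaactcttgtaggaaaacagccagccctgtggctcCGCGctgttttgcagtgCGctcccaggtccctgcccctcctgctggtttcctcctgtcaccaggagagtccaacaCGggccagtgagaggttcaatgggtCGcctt
Slc30a3 downstream: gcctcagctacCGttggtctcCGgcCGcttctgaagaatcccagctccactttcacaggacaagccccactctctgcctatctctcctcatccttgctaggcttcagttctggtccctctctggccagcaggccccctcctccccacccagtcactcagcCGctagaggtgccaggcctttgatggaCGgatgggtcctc
chromosome 6 intergenic: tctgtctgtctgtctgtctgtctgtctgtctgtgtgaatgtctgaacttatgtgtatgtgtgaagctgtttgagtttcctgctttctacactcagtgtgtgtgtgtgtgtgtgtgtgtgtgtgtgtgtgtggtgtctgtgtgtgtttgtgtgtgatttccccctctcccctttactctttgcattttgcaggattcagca
Lpp intron: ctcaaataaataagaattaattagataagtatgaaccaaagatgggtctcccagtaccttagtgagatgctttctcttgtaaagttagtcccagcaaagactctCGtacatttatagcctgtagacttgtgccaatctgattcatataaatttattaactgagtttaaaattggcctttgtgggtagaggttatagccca
Esr1 intron: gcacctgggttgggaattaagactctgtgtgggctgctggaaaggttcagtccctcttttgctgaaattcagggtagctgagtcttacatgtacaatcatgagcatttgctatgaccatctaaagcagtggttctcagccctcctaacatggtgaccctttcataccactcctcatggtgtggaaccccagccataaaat
Agrp and Ripor1: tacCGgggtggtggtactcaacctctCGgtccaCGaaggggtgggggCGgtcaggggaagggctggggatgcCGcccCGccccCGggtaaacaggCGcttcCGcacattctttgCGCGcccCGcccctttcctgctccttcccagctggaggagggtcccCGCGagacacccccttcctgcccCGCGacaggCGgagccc

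These stretches held 4, 0, 6, 5, 0, 1, 0 and 17 CpG, in the order shown. The chromosome 6 stretch held a long run of TG repeats. Runs of 6 or more TG or CA units stood in the central 200 bases of 93 lost intervals (3.35%) and of 3.91% of retained intervals. Over all 649 lost intervals with a KDM2A peak in at least 1 list, 200 bases at the centre of the overlap held 4.73 CpG on average. In 86 of them (13.3%) there were 10 or more. The centres of the 2124 lost intervals with no KDM2A peak held 1.73 CpG on average, and 6 of them (0.282%) held 10 or more. The centres of all merged KDM2A intervals held 4.69, with 10 or more in 12.9%. In retained intervals the window was placed differently, at the overlap with the first merged KDM2A interval, and held 3.11, with 10 or more in 4.89%. The lost intervals as a whole were poor in CpG, with a median of 0.91 CpG per 100 bases, and retained intervals had 0.883. Their median GC content was 44.7%, and in retained intervals it was 43.7%.

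Among intervals with a peak in all 3 WT lists, the lost ones were the narrowest class and had the lower folds. Part of this is built in, and how much was not tested. KO peaks add to the width of a merged interval, and its fold is that of its strongest peak, so wider intervals can reach higher folds. Against single peaks of the WT lists, with median folds of 2.62, 2.48 and 2.50, the lost intervals were about as strong. Their median width was 2078 bp, with a range of 325 to 8401 bp. With peaks of −log10 q of at least 2 it was 5333 bp, and without WT replicate 2 it was 1354 bp. The median width was 3071 bp for intervals in all 3 WT lists and 1 KO list, 4310 bp with 2 KO lists and 8208 bp for retained intervals. The lost intervals covered 6.27 Mb in all and the retained intervals 97.9 Mb. The median fold over control of the strongest peak in a lost interval was 2.60, 2.47 and 2.49 in WT replicates 1, 2 and 3. In retained intervals it was 2.79, 2.65 and 2.68. The median −log10 q was 1.55, 1.56 and 1.43 in lost intervals and 1.95, 1.98 and 1.82 in retained intervals. A −log10 q of at least 2 in every WT list was reached by 5 lost intervals (0.18%) and by 1096 retained intervals (12.9%).

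**Figure D1:**
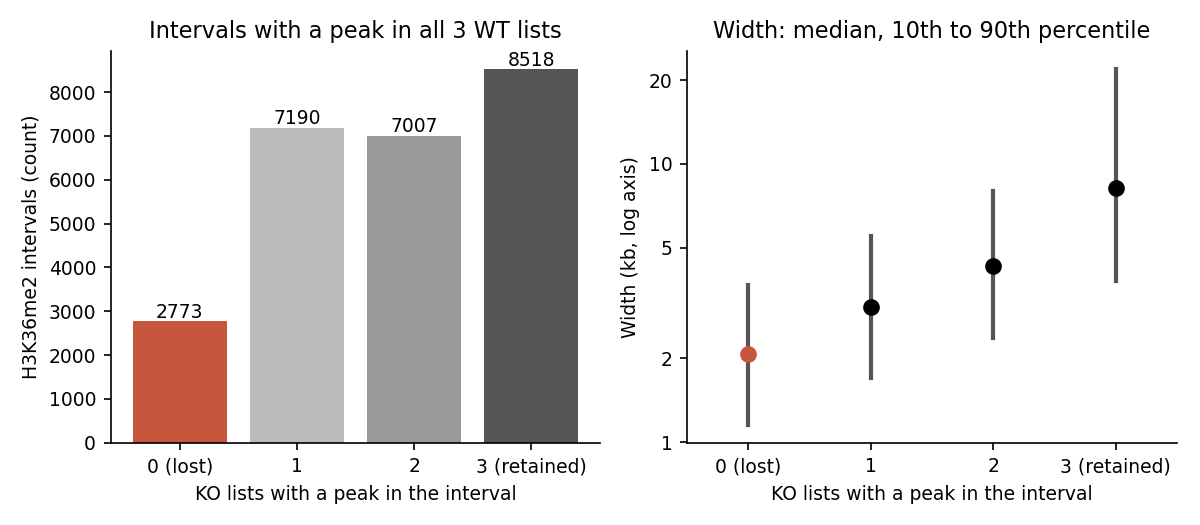
Left, the number of H3K36me2 intervals with a peak in all 3 WT lists, by the number of KO lists that also held a peak. Right, their width in kb on a log axis, with the median as a point and the 10th to 90th percentile as a line. Lost intervals (0 KO lists, 2773) were the fewest and the narrowest class. KO peaks add to the width of the other classes by construction.

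The border of the class was close on both sides. Just outside it stood 7190 intervals with a peak in 1 KO list and 11523 intervals with a peak in 2 WT lists and no KO list. Of the 7190, the single KO peak came from KO replicate 1 in 5713 (79.5%), from replicate 2 in 684 and from replicate 3 in 793. The median −log10 q of those KO peaks was 1.69, 1.47 and 1.33 for replicates 1, 2 and 3. The smallest −log10 q in the lost intervals was 1.08, 1.11 and 1.05 in the WT lists, close to the floor of the lists. With the list of KO replicate 1 left out, the lost intervals numbered 8615. Without WT replicates 1, 2 and 3 they numbered 7842, 6966 and 6729, and without KO replicates 2 and 3 they numbered 3515 and 3589. All 3 WT peaks shared at least 1 base in 1658 of the lost intervals (59.8%), with a median common stretch of 289 bp. In the other 1115 the WT peaks were joined into 1 interval without a base common to all 3 lists.

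The H3K36me2 lists were of unequal length. WT lists ran from 85387 to 94136 peaks, whereas KO replicates 1, 2 and 3 had 106720, 37447 and 45180. The longest list, of KO replicate 1, had the lowest maximum −log10 q, 52.3, against 230 to 789 in the others. Read depth was unknown, and whether its calls compare with those of the other lists was not tested. The opposite class, with a peak in all 3 KO lists and no WT list, held 88 intervals. With 1 library left out it held from 181 (without WT replicate 1) to 980 (without KO replicate 2). With the 37447 strongest peaks of every list, 606 intervals were lost and 214 were in the opposite class. With peaks of −log10 q of at least 2 the numbers were 194 and 16. The part of list length in these counts was not tested further.

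Peaks of KO replicate 1, the longest list, often lay near. The median distance from a lost interval to the closest KO peak was 1650 bp in replicate 1, 7929 bp in replicate 2 and 6543 bp in replicate 3. A peak of KO replicate 1 stood within 1 kb of 936 lost intervals (33.8%). For KO replicates 2 and 3 this share was 9.59% and 10.9%. No peak of KO replicate 2 stood within 10 kb of 1196 lost intervals (43.1%).

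The strongest member by mean WT fold was a stretch of 325 bp at chr6:47737997-47738321, between genes and 43465 bp upstream of Rny3, a small cytoplasmic RNA gene. Its fold was 3.29, 3.62 and 3.59 in WT replicates 1, 2 and 3. It was also the narrowest lost interval. The next was chr16:24927243-24929569 in intron 10 of Lpp, with folds of 3.43, 2.58 and 3.31. Another lay in intron 1 of Aunip, at chr4:134514565-134520006, with folds of 2.70, 2.67 and 3.74. The rank of several of these intervals thus rested on folds that differed between the WT lists. Of the 8 strongest, 7 had no KDM2A peak in any list, and the Aunip interval had one in WT replicate 1 and one in KO replicate 3.

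The widest member covered 8401 bp of intron 1 of Kcnq5, a potassium channel gene, at chr1:21780320-21788720. Its WT folds were 2.65, 2.76 and 3.23, and 1610 bp of it were common to the WT lists. The next were in intron 1 of Gatad2a (6989 bp, chr8:69983381-69990369), a subunit of the NuRD complex, and in intron 1 of Memo1 (6447 bp, chr17:74287064-74293510). The closest KO peak was 911 bp from the Kcnq5 interval, 1561 bp from the Gatad2a interval and 4762 bp from the Memo1 interval.

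By position, 574 lost intervals (20.7%, 95% exact Clopper-Pearson interval 19.2 to 22.3) had their centre within 2 kb of a transcription start site (TSS). A further 1369 (49.4%, 47.5 to 51.2) were intragenic, in a gene but farther from any TSS, and 830 (29.9%, 28.2 to 31.7) were intergenic. The intervals cover counting error only. With peaks of −log10 q of at least 2 the order turned, with 33.5% intragenic and 46.9% intergenic among 194 lost intervals. Among retained intervals 14.1% were at a promoter/TSS, 38.8% intragenic and 47.1% intergenic. The share of intergenic intervals rose step by step with the number of KO lists, from 29.9% to 31.7%, 37.0% and 47.1%. The median distance from a TSS was 7881 bp for lost and 9416 bp for retained intervals. These shares are descriptive, because width differed between the classes as well.

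**Figure D2:**
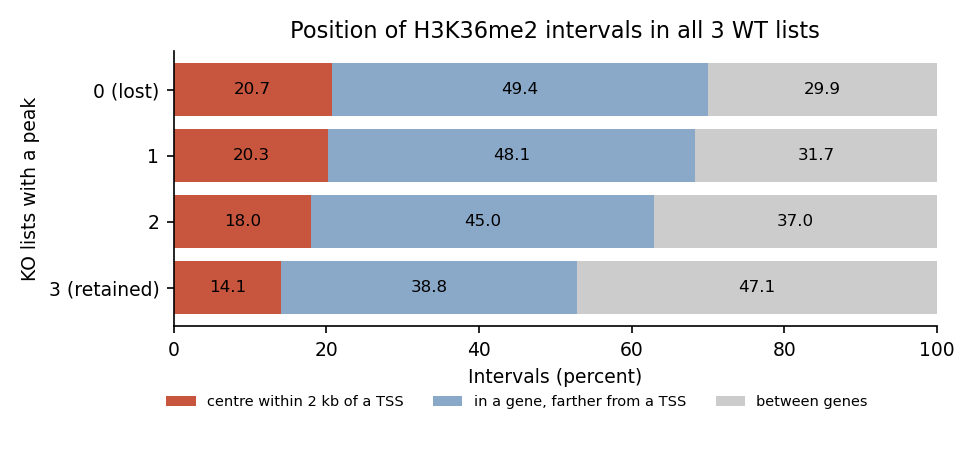
Share of intervals at a promoter/TSS, in a gene and between genes, in percent, for the intervals with a peak in all 3 WT lists, by the number of KO lists with a peak. The intergenic share was 29.9% for lost and 47.1% for retained intervals, and 46.9% for lost intervals from peaks of −log10 q of at least 2.

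Within genes the lost intervals were intronic. The centre of 1611 of them (58.1%) lay in a protein-coding gene, against 38.3% of retained intervals. Of these, 94.4% were in an intron and 4.28% in an exon of the longest transcript (94.0% and 3.56% for retained intervals). Intron 1 held 625 (38.8%), and it held 46.2% of the retained intervals in protein-coding genes. The median position was 39.0% of the way along the gene, with 28.3% in the first 20% of the gene and 14.2% in the last 20%. For retained intervals the median position was 35.7%. The autosomes were alike: the lost intervals made up between 8.19% (chromosome 3) and 13.3% (chromosome 18) of the intervals in all 3 WT lists. The X chromosome had 5 lost intervals among 10 in all 3 WT lists. Peaks on X made up 0.131% of the list of WT replicate 1, labelled male, and 0.677% and 0.636% of the other WT lists.

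The median gap between neighbouring lost intervals on a chromosome was 258 kb. Another lost interval stood within 100 kb of 50.6% of them and within 10 kb of 259 (9.34%). A retained interval stood within 10 kb of 657 (23.7%). The bodies of 1270 protein-coding genes, 5.79% of all 21951, held the centre of at least 1 lost interval. There was 1 lost interval in 1009 of these genes, 2 in 181 and 3 or more in 80. The genes were long, with a median length of 82.9 kb, against 46.6 kb for all 4454 genes with an interval in all 3 WT lists and 17.4 kb for all protein-coding genes. In 446 of the genes (35.1%) a retained interval stood beside the lost one, and in 426 (33.5%) every interval of the 3 WT lists was lost.

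The largest number, 11, fell in Gm20388, a gene model of 4435 kb on chromosome 8 that spans many other genes, so that its count cannot be credited to 1 gene. Next came Lpp, which encodes a LIM domain protein of cell adhesions, with 8 lost of 59 intervals in all 3 WT lists. They lay between 317 and 578 kb from the gene start, in introns 7 to 10, while 30 retained intervals stood in the same gene. Their mean WT folds ran from 2.47 to 3.11. No KDM2A peak overlapped any of the 8 in either genotype. The Lpp body held 148, 121 and 145 H3K36me2 peaks in WT and 147, 75 and 100 in KO, so that KO replicate 1 was at the WT level.

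Esr1, the gene of oestrogen receptor alpha, had 7 lost of 18 intervals, at 25.5 to 340 kb from its start. Hdac9, a class IIa histone deacetylase, had 7 of 44. Immp2l, a subunit of the mitochondrial inner membrane peptidase, had 7 of 27. Long genes with many WT intervals thus led the order. Atp10a, a phospholipid flippase, had 6 of 15 and no retained interval. Babam2, a subunit of a BRCA1 complex, and Fhit, a dinucleotide hydrolase, had 6 of 21 and 6 of 31. Cers6, a ceramide synthase, had 5 of 19 and Dock9, an exchange factor for CDC42, had 5 of 12. Apart from Gm20388, the lost intervals of these genes were under no KDM2A peak except 1 in Dock9, met in 1 WT list.

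Genes of the B cell programme were examined by lists. The transcription factor list had 8 lost of 59 intervals (13.6%) in 4 of 19 genes. Over all protein-coding genes 5.79% held a lost interval, as did 28.5% of those with an interval in all 3 WT lists. Of the 19 genes, 7 held such an interval. Ebf1, which specifies the B lineage, had 4 lost of 11 and no retained interval. The 4 lay in intron 6, between 101 and 201 kb from the gene start, for example chr11:44807674-44810754, with folds of 2.48, 2.64 and 2.41. None was under a KDM2A peak. The Ebf1 body held 46, 56 and 48 H3K36me2 peaks in WT and 45, 12 and 14 in KO, and here too KO replicate 1 was near WT. Foxp1 had 2 of 16, Bach2 had 1 of 13 and Pou2f2, the gene of OCT2, had 1 of 3. The Pou2f2 interval, chr7:25133814-25136240, had folds of 2.87, 2.65 and 2.85 and stood within 2 kb of a TSS.

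**Figure D3:**
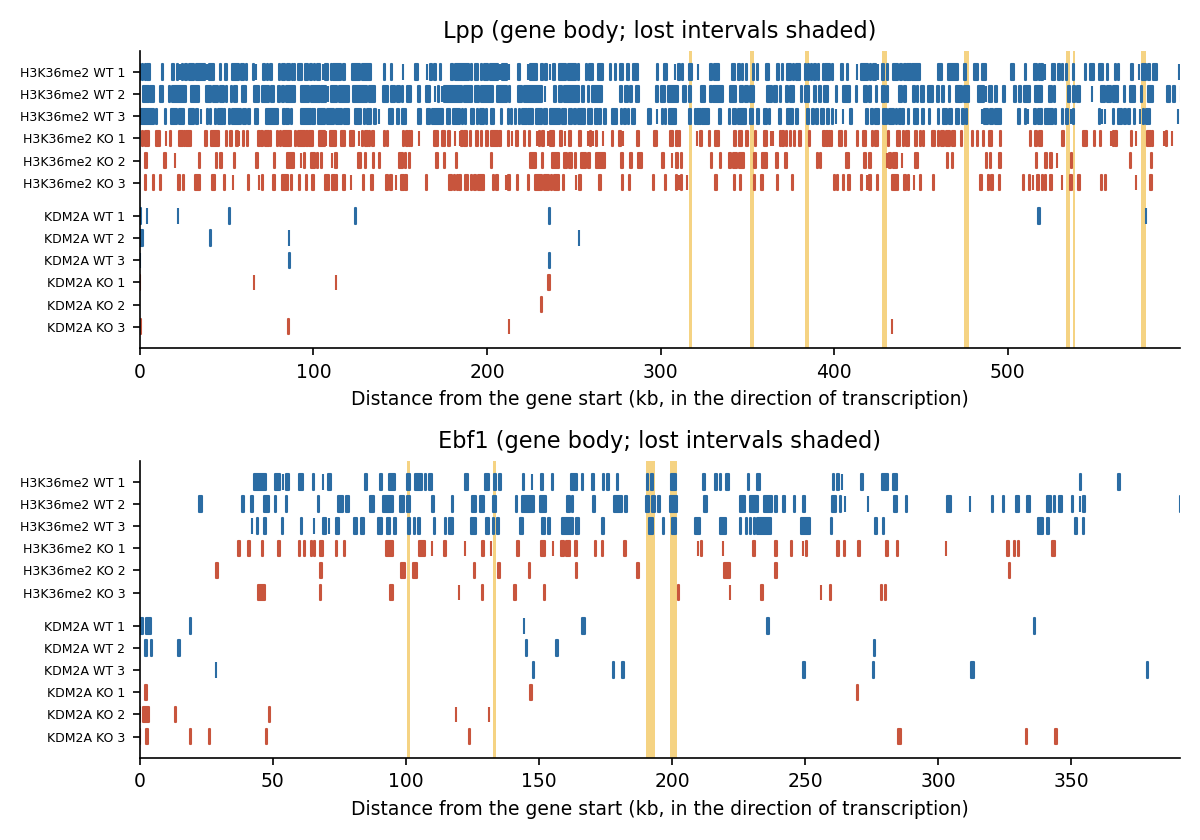
H3K36me2 and KDM2A peaks in each library along Lpp and Ebf1, with the distance from the gene start in kb in the direction of transcription. Each bar is a peak and each row a library, and the lost intervals are shaded, 8 in Lpp and 4 in Ebf1. KO replicate 1 held about as many H3K36me2 peaks as the WT libraries, and no KDM2A peak overlapped a shaded interval.

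The list of B cell receptor and coreceptor genes had 7 lost of 29 intervals (24.1%), in 5 of 19 genes. Plcg2, the phospholipase activated by the receptor, had 2 of 4, at chr8:117501240-117503613 in intron 1 and chr8:117511829-117514153 in intron 2. The folds were 2.56, 2.37 and 2.68 at the first and 2.61, 2.58 and 2.25 at the second. Prkcb, a protein kinase C of the same pathway, had 2 of 16. The kinase Lyn had 1 of 4, and the exchange factor Dock2 and the inhibitory coreceptor Cd72 had 1 of 1. The Cd72 interval, chr4:43453201-43455626, lay over the TSS and was under KDM2A peaks in all 6 KDM2A lists. Against the 10.9% lost among all intervals in 3 WT lists, the receptor list was higher and the transcription factor list close. With 7 and 8 intervals these are counts only.

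The remaining lists held few members, 0 to 3 lost intervals each, to be read against the 10.9% lost among all intervals in 3 WT lists. The CD40 and NF-kB list had 1 lost of 6 intervals, within 2 kb of the TSS of Map3k14, the kinase of the noncanonical pathway. Interleukin 4 signalling had 0 of 9 and oxygen sensing 0 of 1. Known miR-155 targets had 1 of 23, in Jarid2, an accessory subunit of Polycomb complex 2, and the Polycomb list had 3 of 18, in Jarid2, Bcor and Cbx7. Genes of DNA methylation and CpG binding had 2 of 13, in the methyltransferase Dnmt3b and the dioxygenase Tet1. The H3K36 methyltransferase list had 0 of 2 and the H3K36 demethylase list 0 of 6 in gene bodies. Within 2 kb of a TSS, a lost interval lay at Cbx7, Dnmt3b and Tet1 of these lists, and also at Nsd2, which writes H3K36me2, at Kdm4b, a demethylase, and at the methyltransferase Dnmt1. Over all protein-coding genes 2.92% had one. The Nsd2 interval, chr5:33818168-33819569, had folds of 2.41, 2.51 and 2.57 and a KDM2A peak in 1 WT list. The B, T and myeloid marker lists held 0 lost intervals, of 0, 1 and 8 intervals in all 3 WT lists. None of the 7 B cell marker genes held an interval in all 3 WT lists, so the cell type could not be checked from this mark.

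Nuclear genes in families of mitochondrial proteins, taken by the start of their symbols and examined after results were known because the study followed them, numbered 207. The list is not complete, and Immp2l, described above, is not in it. Of these, 16 held an interval in all 3 WT lists and 5 held a lost one (2.42%, against 5.79% of all protein-coding genes). They were Cox16, Mrpl23, Mrps28, Ndufaf2 and Sdhd. Mrps28 held 2 lost intervals and the others 1. In all, 6 of 22 intervals in these genes were lost (27.3%, against 10.9% of all intervals in 3 WT lists). The gene share was thus below its background and the interval share above it, on few intervals. A lost interval lay within 2 kb of a TSS in 6 of the 207 genes, Atp5s, Mrpl1, Mrpl23, Sdhd, Timm8b and Uqcr10, and over all protein-coding genes this share was 2.92%.

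The 574 lost intervals near a TSS lay on both sides of it. The centre was upstream in 297 and downstream in 277, at a median distance of 1044 bp, and the TSS itself was inside a lost interval in 272 (47.4%). KDM2A peaks were sharpest at the TSS. In WT they covered the TSS of 35.2%, 32.1% and 30.1% of these promoters and in KO of 22.3%, 23.7% and 28.0%. At 2 kb upstream the WT mean was 6.27% ± 1.38 (SD, n = 3) and the KO mean 4.41% ± 1.02. The values of the genotypes did not overlap at the TSS, with KO below WT. A wider measure, a KDM2A peak within 2 kb of a TSS, was also lower in KO over all protein-coding genes. Its means were 47.5% in WT and 41.2% in KO, and they cannot be set in size against the coverage at the TSS itself.

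**Figure D4:**
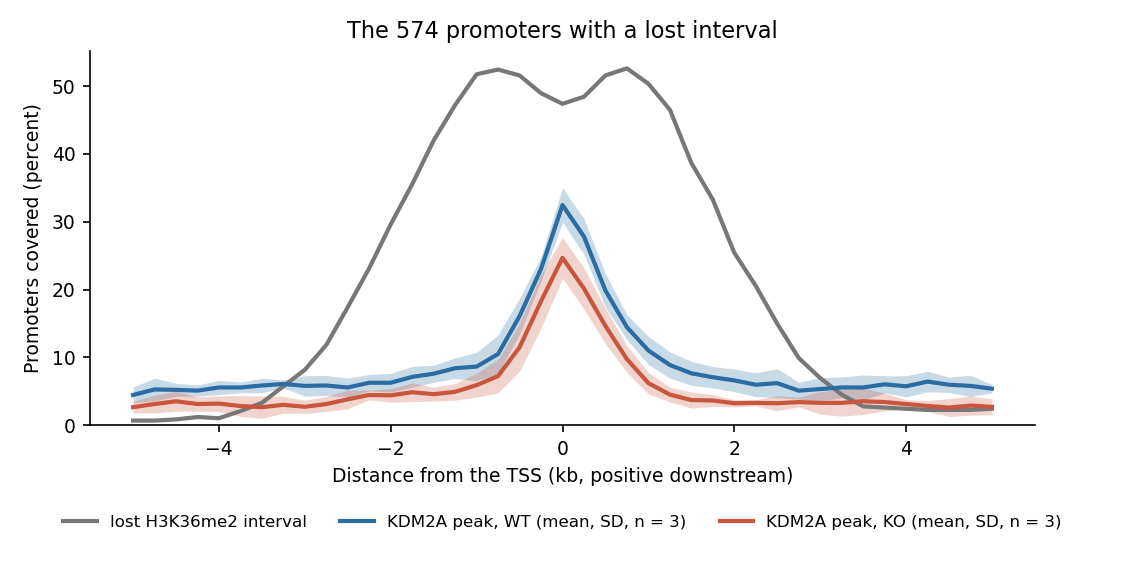
Share of the 574 promoters with a lost interval that were covered, in percent, at each distance from the TSS in kb: by a lost H3K36me2 interval, and by a KDM2A peak in WT and KO (line, mean of 3 libraries; band, SD). KDM2A was narrow around the TSS, 32.5% in WT and 24.7% in KO, and the lost intervals were broad, covering 47.4% of the promoters at the TSS and 51.7% at 1 kb upstream.

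KDM2A lists were not used to choose the intervals. The study had 6 input libraries for 12 ChIP libraries, so the lists of both antibodies can share a control, and its part in these values was not tested. Most lost intervals, 2124 (76.6%), were under no KDM2A peak in any of the 6 lists. For retained intervals, which were wider and so more easily met by a peak, this share was 45.5%. A KDM2A peak overlapped 359, 261 and 285 lost intervals in WT replicates 1, 2 and 3 (12.9%, 9.41% and 10.3%). In KO it overlapped 161, 162 and 241 (5.81%, 5.84% and 8.69%). Every KO list was below every WT list, and the mean share was 10.9% ± 1.84 for WT lists and 6.78% ± 1.66 for KO lists (SD, n = 3, two-sided exact permutation p = 0.1, adjusted p = 0.12 over 12 measures). The smallest p that 3 against 3 libraries allow is 0.1.

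The same order held at retained intervals and over the genome. Retained intervals were under a KDM2A peak in 32.0% ± 3.06 in WT and 22.8% ± 4.09 in KO (n = 3, exact permutation p = 0.1, adjusted p = 0.12). The KDM2A lists themselves were longer in WT, with 23372 to 29105 peaks, than in KO, with 15387 to 21705. When the 15387 strongest peaks of each list were used, lost intervals were overlapped in 8.33%, 7.10% and 7.14% in WT and 5.73%, 5.84% and 6.38% in KO. KO minus WT was -4.10 percentage points with all peaks and -1.54 with equal numbers (exact permutation p = 0.1, n = 3), and every KO list was still below every WT list. By sex, KO minus WT with all peaks was -7.14 points between the male libraries and -2.58 on average between the female ones, and with 1 male library a genotype this difference was not tested.

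**Figure D5:**
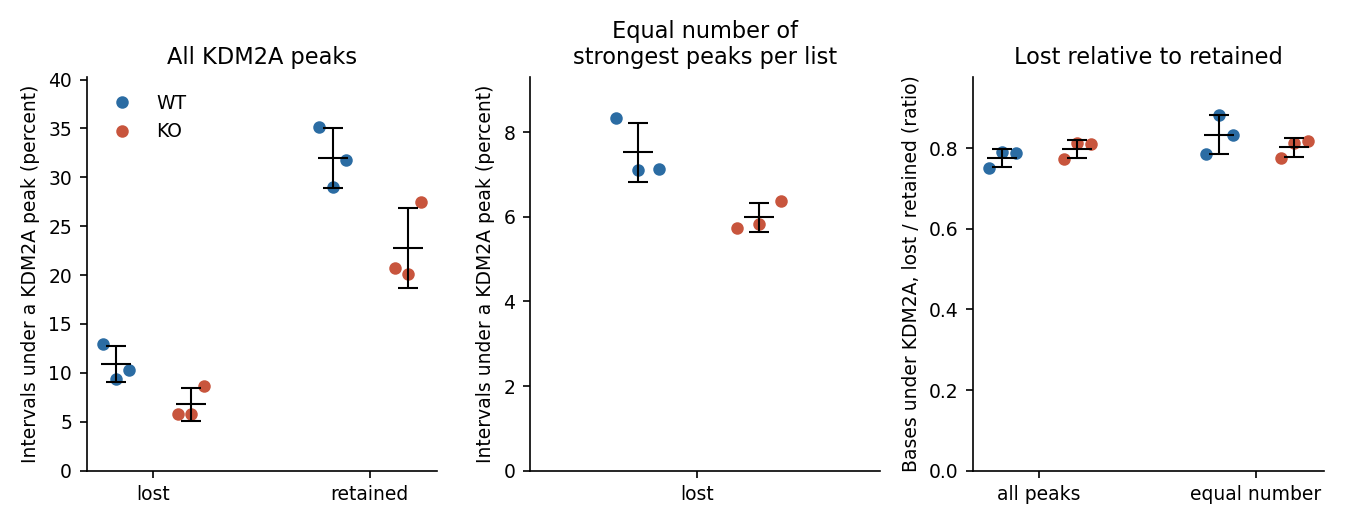
Left, intervals under a KDM2A peak in percent, for lost and retained intervals. Middle, the same for lost intervals with an equal number of the strongest KDM2A peaks from each list. Right, the percent of bases under KDM2A peaks in lost divided by retained intervals, with all peaks and with equal numbers. Points are libraries and bars the mean and SD of 3. KO lay below WT in the left and middle panels, and the genotypes overlapped in the right panel.

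KDM2A was next taken relative to retained intervals. The share of lost intervals under a peak, divided by the share of retained ones, was 0.339 ± 0.0259 in WT and 0.295 ± 0.0186 in KO (n = 3, exact permutation p = 0.1, adjusted p = 0.12). No KO value reached the lowest WT value. The same ratio for a peak within 5 kb was 0.648 ± 0.00419 in WT and 0.629 ± 0.0299 in KO (exact permutation p = 0.4, adjusted p = 0.4, n = 3). KDM2A peaks covered 3.96%, 2.66% and 3.01% of the bases of lost intervals in WT. In KO they covered 1.42%, 1.28% and 2.40%. Divided by the same percent for retained intervals, these gave ratios of 0.751, 0.791 and 0.788 for WT lists, and KO lists gave 0.773, 0.814 and 0.81. The means, 0.777 ± 0.0222 and 0.799 ± 0.0224, were close and the libraries overlapped (n = 3, exact permutation p = 0.3, adjusted p = 0.327). Within a sex, KO minus WT was 0.0220 between the male libraries and 0.0192 to 0.0252 between the female ones, a difference not tested by sex. The sign of the difference between the means turned when an equal number of peaks was taken (0.834 ± 0.0481 in WT, 0.802 ± 0.0237 in KO). It also turned when both classes were limited to 5 kb in width (1.11 ± 0.0476 and 0.989 ± 0.0704). In the latter case all 3 KO lists were below the WT lists (exact permutation p = 0.1, n = 3). In that narrow comparison, 10.7% of 2719 lost and 15.0% of 1779 retained intervals were under a WT peak on average.

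A KDM2A peak stood within 5 kb of 32.6%, 27.8% and 30.0% of the lost intervals in WT and of 20.4%, 21.5% and 26.6% in KO (exact permutation p = 0.1, adjusted p = 0.12, n = 3). Every KO list was again below WT. For retained intervals the means were 46.5% and 36.3%. With equal numbers of KDM2A peaks the share for lost intervals was 22.2% ± 0.273 in WT and 21.1% ± 0.708 in KO, so that KO minus WT went from -7.32 (-12.3 in the male and -4.85 in the female libraries) to -1.11 percentage points (exact permutation p = 0.1, n = 3). By position, KDM2A met lost intervals mainly at promoters. There it overlapped 29.7% ± 3.37 in WT and 21% ± 3.76 in KO, and 48.8% ± 2.89 and 35.4% ± 5.38 of the wider retained intervals. In intragenic lost intervals the shares were 6.40% ± 1.64 and 3.34% ± 1.23, and in intergenic ones 5.22% ± 1.32 and 2.65% ± 0.956. The bases at promoters gave the reverse order, since KDM2A covered more of those of lost than of retained intervals, 9.36% against 7.0% in WT and 5.66% against 3.79% in KO. In genes and between genes it covered less of the lost ones, for example 1.72% against 3.51% of intragenic bases in WT.

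Interval by interval, 384 lost intervals (13.8%) were overlapped in more WT than KO lists and 122 (4.40%) in more KO than WT lists. For retained intervals these shares were 28.9% and 9.03%. KDM2A peaks in all 6 lists met 48 lost intervals (1.73%, against 9.36% of the wider retained intervals). Peaks in all 3 WT lists and no KO list met 7 (0.252%, against 1.06%). Peaks in all 3 KO lists and no WT list met 1 (0.0361%, against 0.0587%). Counted over merged KDM2A intervals, 6 of the 753 that overlapped a lost interval (0.797%) were in all 3 WT lists and no KO list, against 0.7% of all 67881. None of the 753 was in all 3 KO lists and no WT list, against 0.056% of all. Of the 2574 within 5 kb of a lost interval, 28 (1.09%) had the first pattern and 3 (0.117%) the second.

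The interval with KDM2A in the 3 KO lists and no WT list lay at chr1:171360375-171363160, 970 bp upstream of Klhdc9, with KDM2A folds of 2.82, 2.54 and 2.51 in KO. Its H3K36me2 folds were 2.43, 2.30 and 2.36 in WT. Among those with the reverse pattern, the strongest was chr8:70866177-70867278 upstream of Kcnn1, with KDM2A folds of 3.20, 4.06 and 3.73 in WT. The next was chr5:31081340-31083602 near Slc30a3, a zinc transporter gene, with 3.03, 3.93 and 2.67. Another, chr4:149736398-149737433 in intron 1 of Tmem201, had 2.70, 2.95 and 2.77. At these intervals both the mark and the demethylase were called in WT only.

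Among the 48 bound in every list, chr15:82213475-82217244 upstream of Shisa8 had KDM2A folds of 4.02, 3.99 and 3.65 in WT and 2.53, 2.88 and 3.51 in KO. The KO values were all below the WT values there. At the promoter of Sltm, chr9:70538901-70543531, the folds were 2.99, 3.48 and 3.63 in WT and 3.59, 3.59 and 3.22 in KO, and they overlapped. They also overlapped at chr19:6241966-6244558 in intron 1 of Atg2a, an autophagy gene, with 2.59, 3.40 and 4.61 in WT and 3.40, 2.99 and 3.16 in KO. The most CpG-rich lost interval, chr8:105613360-105614459, held 6.0 CpG per 100 bases and had a KDM2A peak in all 3 WT and 2 KO lists.

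The fold of KDM2A was tested with limma at the 5250 KDM2A intervals present in all 6 lists, of which 330 lay within 5 kb of a lost interval. No interval passed at an adjusted p of 0.05, 0 of the 330 and 0.0% of all 5250, and the smallest adjusted p was 0.898. At an unadjusted p under 0.05, 6 of the 330 were lower and 8 higher in KO, which is 4.24% against 5.35% of all. The median log2 change was 0.01 near lost intervals, on values centred on the median of each list, and 186 of the 330 were higher in KO, as were 2662 of the 5250. All 3 KO folds lay below all 3 WT folds at 18 of the 330 intervals, against 5.2% of the 5250, and above them at 19, against 5.47%. The counts near lost intervals were close to those over the 5250, which leave out every site without a peak in some list.

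The smallest p near a lost interval was at chr6:66896200-66897388, with KDM2A folds of 2.66, 2.47 and 2.35 in WT. Its KO folds were 3.30, 2.55 and 4.05. Its log2 change was 0.44 ± 0.13 (SE) with a limma adjusted p of 0.898. The next, chr9:44798580-44800734, went the other way, from 3.09, 3.40 and 3.23 in WT to 2.67, 2.23 and 2.62 in KO, with a log2 change of -0.32 ± 0.09 (SE) and the same adjusted p. Both overlapped a lost interval, and neither passed the test.

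At gene level, 75.0%, 73.4% and 73.5% of the 1270 genes with a lost interval had a KDM2A peak within 2 kb of a TSS in WT, and 62.9%, 61.9% and 72.3% in KO. Every KO list was below WT (exact permutation p = 0.1, adjusted p = 0.12, n = 3). Over all protein-coding genes the means were 47.5% ± 0.796 and 41.2% ± 3.54. Relative to all genes the order turned: the share for genes with a lost interval, divided by that of all genes, came to 1.56 ± 0.00816 for WT and 1.59 ± 0.0125 for KO lists, all 3 of which were higher (exact permutation p = 0.1, adjusted p = 0.12, n = 3). Genes with intervals in all 3 WT lists but none lost, 3184 in number, had means of 70.7% ± 1.14 and 61.4% ± 4.98. The mean share for genes with a lost interval, 74.0% in WT and 65.7% in KO, was above both of these sets in each genotype. With an equal number of KDM2A peaks per list KO minus WT was -0.105 percentage points (63.3% ± 1.97 in WT, 63.2% ± 1.71 in KO, exact permutation p = 1).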

How the data were processed

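ChIP-seq for H3K36me2 and KDM2A was made from chromatin fixed with EGS and formaldehyde, with input libraries as controls. Alignment (BWA, GRCm38) and broad peak calling (MACS2) were done by the authors through nf-core/chipseq. Bedtools is also named in the submitters' processing notes, and versions of BWA, MACS2 and bedtools are not given in the sources used here. Each of the 12 deposited lists came from 1 library, and replicates were not pooled. The deposited fold of a peak is a ratio over control, not scaled between libraries. Further columns, as deposited, hold −log10 of the p-value and −log10 of the q-value, and the deposited score was not used. No read counts were given, so depth is unknown.

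Starts were converted to 1-based positions. Peaks of the 6 H3K36me2 lists were merged where they overlapped by 1 bp. The fold of an interval in a list was that of its strongest peak. Genes and TSS were from GENCODE M21, and sequences from the RefSeq copy of GRCm38. A centre in several protein-coding genes was given to the shortest, and exons and introns were those of its longest transcript. Gene counts took every gene whose body held the centre.

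Libraries were the replicates. Each single value was compared by a two-sided exact permutation test over 6 libraries, with Benjamini-Hochberg adjustment over 12 measures. For KDM2A folds, limma 3.58.1 (R 4.3.3, with a mean trend) was run on median-centred log2 fold, adjusted by Benjamini-Hochberg over 5250 intervals, and the script was tested on simulated data. Python 3.11.15, numpy 2.4.6, pandas 2.3.3 and scipy 1.17.1 were used. Genes and intervals were named by rank: the 10 genes with the most lost intervals, the 8 strongest and 5 widest intervals, up to 5 of each KDM2A pattern, the 5 richest in CpG, and genes of the lists, from which examples are printed. Ties between genes went to the shorter gene, which left out Nedd4l and Smyd3, with 5 lost intervals each. The members, lists and rules were chosen with earlier results of these data known. Alternatives were equal numbers of peaks, stricter q, other windows and overlaps, the replicate number as a block, and each library left out. An alternative limited to intervals of at most 5 kb was chosen after seeing the data. Input libraries served only as the authors' control.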

Additional observations from a re-analysis of the deposited data

How the results depend on the processing

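The number of lost intervals depended on which peaks entered. It was 2773, and 606 with equal numbers of the strongest H3K36me2 peaks, 194 with −log10 q of at least 2, and 1658 when a base had to be common to the 3 WT lists. With each H3K36me2 library left out in turn it ran from 3515 to 8615, and the highest value was without KO replicate 1. The lost share of the intervals in every WT list used was 10.9%, and 7.95% with equal numbers of peaks. It was 19.9% with the stricter q and 13.6% to 33.4% with a library left out. Fewer lists in the rule admit more intervals by construction. With equal numbers of peaks the median width was 3029 bp, and 25.2% were at a promoter/TSS, 47.0% intragenic and 27.7% intergenic. With the stricter q the width was 5333 bp, 33.5% were intragenic and 46.9% intergenic. With a library left out the width ran from 1354 to 2584 bp and the promoter/TSS share from 18.7% to 21%. The cause of these shifts was not tested.

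KO minus WT stayed below 0 for the share under a KDM2A peak, within 5 kb and at the TSS of genes under every alternative run. With equal numbers of KDM2A peaks it shrank from -4.10 to -1.54, from -7.32 to -1.11 and from -8.27 to -0.105 percentage points, and the last no longer separated the genotypes (exact permutation p = 1). Others were larger: -16.2 at the TSS of genes with KDM2A peaks of −log10 q of at least 2, and -6.49 under a peak with equal numbers of H3K36me2 peaks. For bases under KDM2A, lost divided by retained, it was 0.0222 and turned to -0.0314 with equal numbers of KDM2A peaks and -0.12 with intervals of at most 5 kb. The cause was not tested. No p could go below 0.1. With limma, 0 KDM2A intervals near lost intervals passed in every alternative, with 14 to 21 at an unadjusted p under 0.05, or 7 of 150 when only those overlapping a lost interval were taken. At the 5250 KDM2A intervals in all 6 lists, the folds of same-numbered libraries did not vary together. Correlations of their deviations from the genotype mean were 0.000905, -0.0163 and 0.00106. These values cannot show whether such libraries were processed together, and replicate 1 was labelled male in both genotypes. With the replicate number as a block, the difference under a KDM2A peak was -4.10 percentage points (exact sign-flip p = 0.25, the smallest 3 pairs allow) and limma again called 0. Peak presence has a threshold and depth is unknown, so a missing KO peak does not show that the mark is absent.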
